A study of Homo sapiens with 6 samples.

Results

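The genes of DNA replication and of the passage from G1 into S phase were followed in SCC-9 cells after a hairpin against MTHFD2. SCC-9 is a human cell line that was derived from a squamous carcinoma of the tongue. The set holds 60 genes, taken by symbol from a list of replication and G1/S genes, among 17862 genes in the deposited expression table, and all 60 were found and tested. MTHFD2 works in mitochondria on folate-bound carbon units, which cells need to make purines and thymidylate. The control cells carried a hairpin plasmid named shNC and the treated cells one named shMTHFD2, with 3 libraries of each. Both groups were kept in DMEM/F12 with 10% serum and 400 ng/mL hydrocortisone. The treatment label speaks of knockdown by short hairpin plasmids, and the design text of knock-out cells. The sources used here do not give how many hairpin sequences or clones stand behind a group. The replicates are called biological in the design text without further detail of the cultures, so that a p-value measures only how these libraries vary.

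Replication starts at origins that were licensed in G1. The origin recognition complex (ORC), CDC6 and CDT1 load the ring-shaped MCM helicase, made of MCM2 to MCM7, and geminin (GMNN) blocks CDT1 outside G1. The kinase CDC7 with its activator DBF4, and cyclin E with CDK2, then turn the loaded ring into an active helicase together with CDC45 and the GINS complex, after which primase, the clamp PCNA and the polymerases copy the strands. Many of these genes are known targets of the E2F transcription factors, which the retinoblastoma protein holds in check until cyclin-dependent kinases release them.

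Sequences before the start of the genes are shown here because E2F factors bind there in the textbook account and because 3 members passed the test in the comparison of hairpins. The windows are from RefSeq on GRCh38.p14 and run from 250 bases before to 50 bases after an annotated start, 5′ to 3′ on the strand of the gene. Capitals mark any of 4 words of 8 letters, TTTCCCGC, TTTGGCGC, TTTCGCGC and TTTGCCGC, searched on both strands, where words may overlap. The first windows belong to E2F3 (chr6:20401629-20401928, + strand), CLSPN (chr1:35769929-35770228, − strand) and POLD2 (chr7:44123499-44123798, − strand). E2F3 and CLSPN hold 1 word each and POLD2 holds 0. A further RefSeq start of E2F3 has a window with 0 words.
E2F3: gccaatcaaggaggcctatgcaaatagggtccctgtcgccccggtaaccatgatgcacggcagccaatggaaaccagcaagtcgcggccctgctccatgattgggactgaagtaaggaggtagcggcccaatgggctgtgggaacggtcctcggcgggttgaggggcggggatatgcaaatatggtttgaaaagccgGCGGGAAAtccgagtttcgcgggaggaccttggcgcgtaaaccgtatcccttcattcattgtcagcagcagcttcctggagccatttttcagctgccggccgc
CLSPN: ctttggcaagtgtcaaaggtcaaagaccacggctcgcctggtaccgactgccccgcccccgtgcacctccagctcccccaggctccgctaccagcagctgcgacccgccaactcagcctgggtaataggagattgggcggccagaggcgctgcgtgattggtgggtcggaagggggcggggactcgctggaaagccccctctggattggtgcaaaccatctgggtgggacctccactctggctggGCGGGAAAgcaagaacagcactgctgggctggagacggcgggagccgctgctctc
POLD2: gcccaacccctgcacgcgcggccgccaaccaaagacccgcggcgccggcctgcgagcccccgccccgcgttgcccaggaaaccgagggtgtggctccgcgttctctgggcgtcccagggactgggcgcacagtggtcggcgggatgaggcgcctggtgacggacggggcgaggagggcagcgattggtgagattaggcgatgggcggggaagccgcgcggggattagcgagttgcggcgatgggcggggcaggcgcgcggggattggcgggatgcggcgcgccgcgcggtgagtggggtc

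Of the 60 members, 51 had a window in the table and 27 of these, 52.9%, held at least 1 of the words. Over all 27305 genes with a window the share was 3.99%. The box CCAAT, bound by NF-Y, was in 30 of the 51 members, 58.8%, against 39.7% of all genes, and the word TTTGAA, known from genes of G2 and mitosis, was in 3 of 51, 5.88%, against 18.2%. Shorter stretches around a word are given for members whose values are described further on, to show how the words sit in a helicase subunit, the clamp, a GINS subunit, a fork protector and a phosphatase. Their positions are chr2:135876510-135876549 for MCM6, chr20:5126658-5126697 for PCNA, chr16:85688962-85689001 for GINS2, chr15:66356728-66356767 for TIPIN and chr3:48188438-48188477 for CDC25A, all on the − strand of GRCh38.p14.
MCM6: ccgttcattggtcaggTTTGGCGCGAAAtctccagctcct
PCNA: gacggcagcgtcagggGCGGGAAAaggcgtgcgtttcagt
GINS2: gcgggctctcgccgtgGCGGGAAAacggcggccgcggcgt
TIPIN: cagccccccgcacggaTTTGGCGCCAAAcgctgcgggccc
CDC25A: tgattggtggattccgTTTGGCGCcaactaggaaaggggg

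In MCM6 and TIPIN a word on one strand overlaps a word on the other, so that the capitals run over 12 letters. PCNA and TIPIN each have a further RefSeq start whose window holds 0 words. A match is a description of letters and not a bound site.

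The libraries held 18676999 to 19838989 estimated read counts, and the members took between 70 counts, for E2F2, and 8524 counts, for MCM4, in a library. MTHFD2 itself was at 190.35, 200.002 and 182 CPM (read counts scaled to library size) in shNC and at 46.9, 35.7 and 65.8 CPM in shMTHFD2. The targeted transcript was thus lower in every knockdown library (log2 change -1.95 ± 0.21 SE, adjusted p of 0.00924 in edgeR). That call was lost without shNC replicate 1 or 2, where 0 of all genes tested were lower at an adjusted p under 0.05. Squamous markers were high in every library, with a summed level of 8958 to 11064 TPM (a level per transcript length, scaled to the library) over 8 genes that include KRT5, KRT14 and TP63. The 6 fibroblast markers summed to 6.05 to 8.71 TPM in shNC and 12.7 to 24.2 TPM in shMTHFD2, most of it COL1A1, while COL3A1 was at 0.00 to 0.06 TPM. The 4 endothelial markers summed to 0.40 to 0.62 TPM, and of the 6 immune markers, at 144 to 160 TPM in shNC and 146 to 209 TPM in shMTHFD2, CD3E was at or near 0 and CD68 made up most. The part of COL1A1 and CD68 in the results was not tested. Replicate 2 of shMTHFD2 stood furthest from the controls. Its correlations of log2 CPM with shNC were 0.946 to 0.956, against 0.976 to 0.984 for replicates 1 and 3. It also had the fewest counts and the most genes above 0, 16858 against 16129 to 16348 in the other libraries. The shMTHFD2 libraries stood further apart from each other than the shNC libraries. Correlations were 0.958 to 0.984 within shMTHFD2 and 0.992 to 0.994 within shNC. The lowest of them joined shMTHFD2 replicates 2 and 3. Calls gained without either of these libraries are given for each role as a description. Over all genes the calls also grew, from 745 with every library to 1968 without replicate 2 and 3651 without replicate 3. A gain in these fits is therefore no added support for a member. Without any other single library, or with the replicate number as a block, 0 members were lower at an adjusted p under 0.05.

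The replication genes lay lower with the MTHFD2 hairpin as a body, by a modest amount and unevenly over the 3 libraries. The median log2 fold change of the 60 members was -0.41, with a range from -0.93 for MCM10 to 0.22 for POLE3, and the median of all 13710 genes tested was 0.01. The estimate was negative for 53 of the 60 members, 88.3%, against 49.0% of all genes. Of the members, 3 fell with an adjusted p under 0.05 in edgeR's quasi-likelihood test with Benjamini-Hochberg adjustment over all genes, namely E2F3, POLD2 and CLSPN. That is 3 of 60, against 2.47% of all genes that fell. None rose, where 2.97% of all genes did. In edgeR 0 members had a positive estimate with an unadjusted p under 0.05, against 14.6% of all genes, and 0 were called as higher by DESeq2, against 8.07%, or by limma-voom, against 2.57%. At an unadjusted p under 0.05, 25 members were lower, 41.7%, against 14.1% of all genes. In bulk RNA, fewer cells in S phase and less of these transcripts per cell cannot be told apart.

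**Figure D1:**
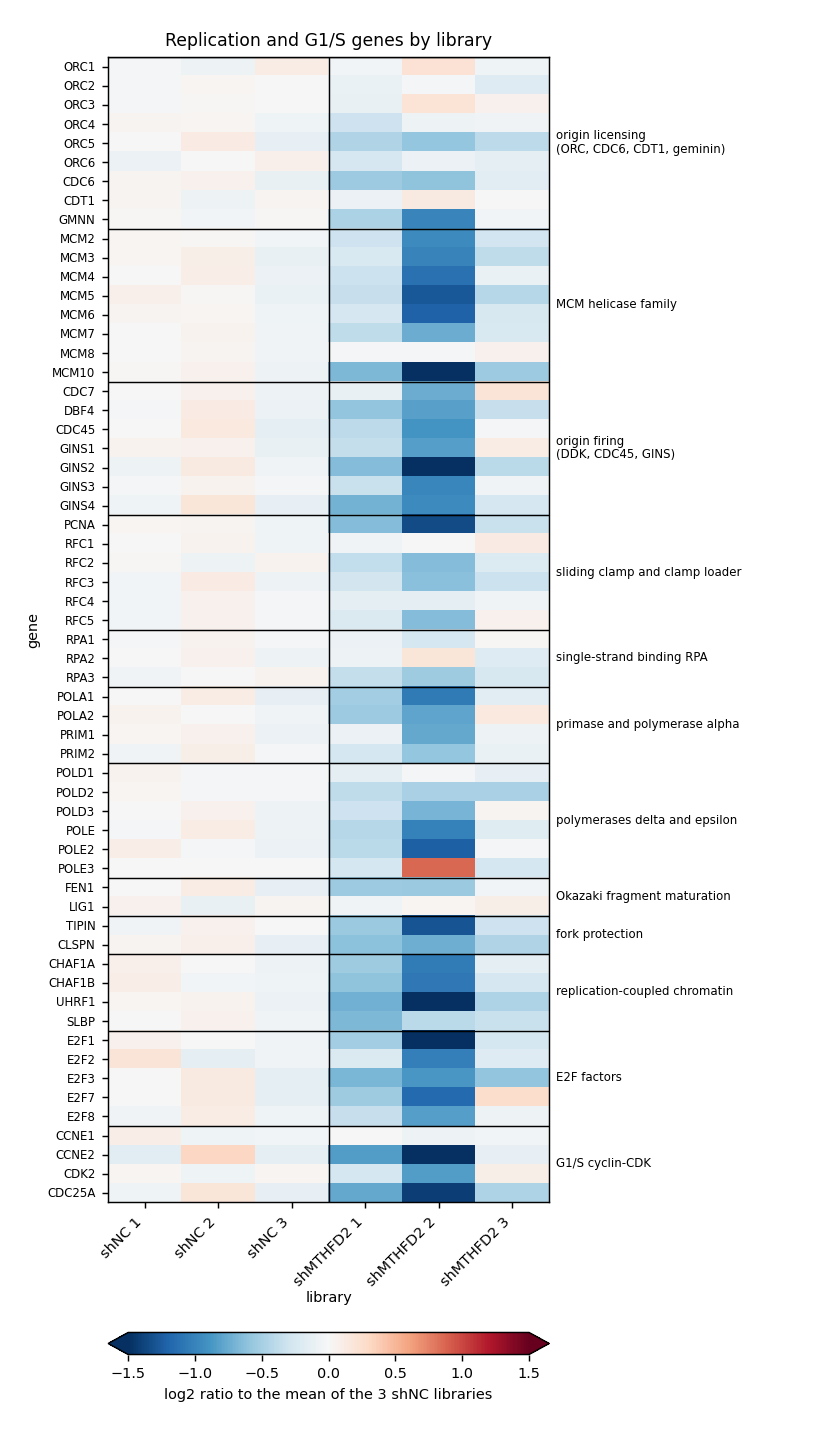
Log2 ratio of each of the 60 genes (rows, by role) to the mean of the 3 shNC libraries, for each library (columns), on a colour scale from -1.5 to 1.5. The shNC columns are pale, shMTHFD2 replicate 2 holds most of the darkest blue and the single strong red, POLE3, and shMTHFD2 replicate 3 is the palest of the knockdown columns, with member medians of -0.35, -0.78 and -0.15 in replicates 1, 2 and 3.

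Every member could also be placed against the 3 shNC libraries without a fit. In 35 of 60 members, 58.3%, all 3 shMTHFD2 libraries lay below all 3 shNC libraries, against 19.7% of all genes. The reverse order occurred in 0 members and in 18.1% of all genes. Replicate 1 of shMTHFD2 was below the shNC range in 54 members against 41.9% of all genes, and above it in 0, against 36.5%. Replicate 2 was below in 50, 83.3%, against 43.5%, and above in 5, against 44.2%, these being ORC1, ORC3, CDT1, RPA2 and POLE3. Replicate 3 was below in 39, 65.0%, against 37.2%, and above in 9, against 36.5%, these being ORC3, MCM8, CDC7, GINS1, RFC1, POLA2, LIG1, E2F7 and CDK2. The median ratio of the members to the shNC mean was -0.35, -0.78 and -0.15 on the log2 scale in replicates 1, 2 and 3, while the median over all genes was -0.02, 0.01 and -0.00. Replicate 2 was the lowest of all 6 libraries in 45 members, 75.0%, against 34.1% of all genes. The order replicate 2, replicate 1, replicate 3 from low to high held in 41 members, 68.3%, against 30.9% of all genes, and was also the order of MTHFD2 itself. With 3 libraries this order is a description.

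The knockdown libraries were more spread out than the controls. The median SD of the members on the log2 scale was 0.08 within shNC and 0.37 within shMTHFD2, and over all genes it was 0.09 and 0.24. Without shMTHFD2 replicate 2, 16 members passed the threshold as lower, 26.7%, against 7.09% of all genes, with a median over the 60 members of -0.23. Without replicate 3, 30 passed, against 12.6% of all genes, with a median of -0.55. Both of these fits called 12 members in common, CDC25A, CLSPN, DBF4, E2F3, GINS2, MCM10, ORC5, PCNA, POLD2, SLBP, TIPIN and UHRF1. Without any other single library 0 members passed, and at most 5 genes in all were called without an shNC library and 27 without shMTHFD2 replicate 1. These fits called 0.00, 0.00, 0.0215 and 0.0504% of all genes as lower without shNC replicates 1, 2 and 3 and shMTHFD2 replicate 1. At an unadjusted p under 0.05 they had 16, 12, 19 and 19 members as lower, against 7.34, 6.84, 10.2 and 10.6% of all genes. With the replicate number as a block 0 members were called, against 0.0365% of all genes, and 28 were lower at an unadjusted p under 0.05, against 11.1%. DESeq2 called 15 members as lower, against 6.69% of all genes, limma-voom 3, against 2.49%, and limma-trend on log2(TPM + 1) 2, against 1.54%. By size alone, 13 members, 21.7%, had an estimate at least 1.5-fold lower, against 4.76% of all genes.

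**Figure D2:**
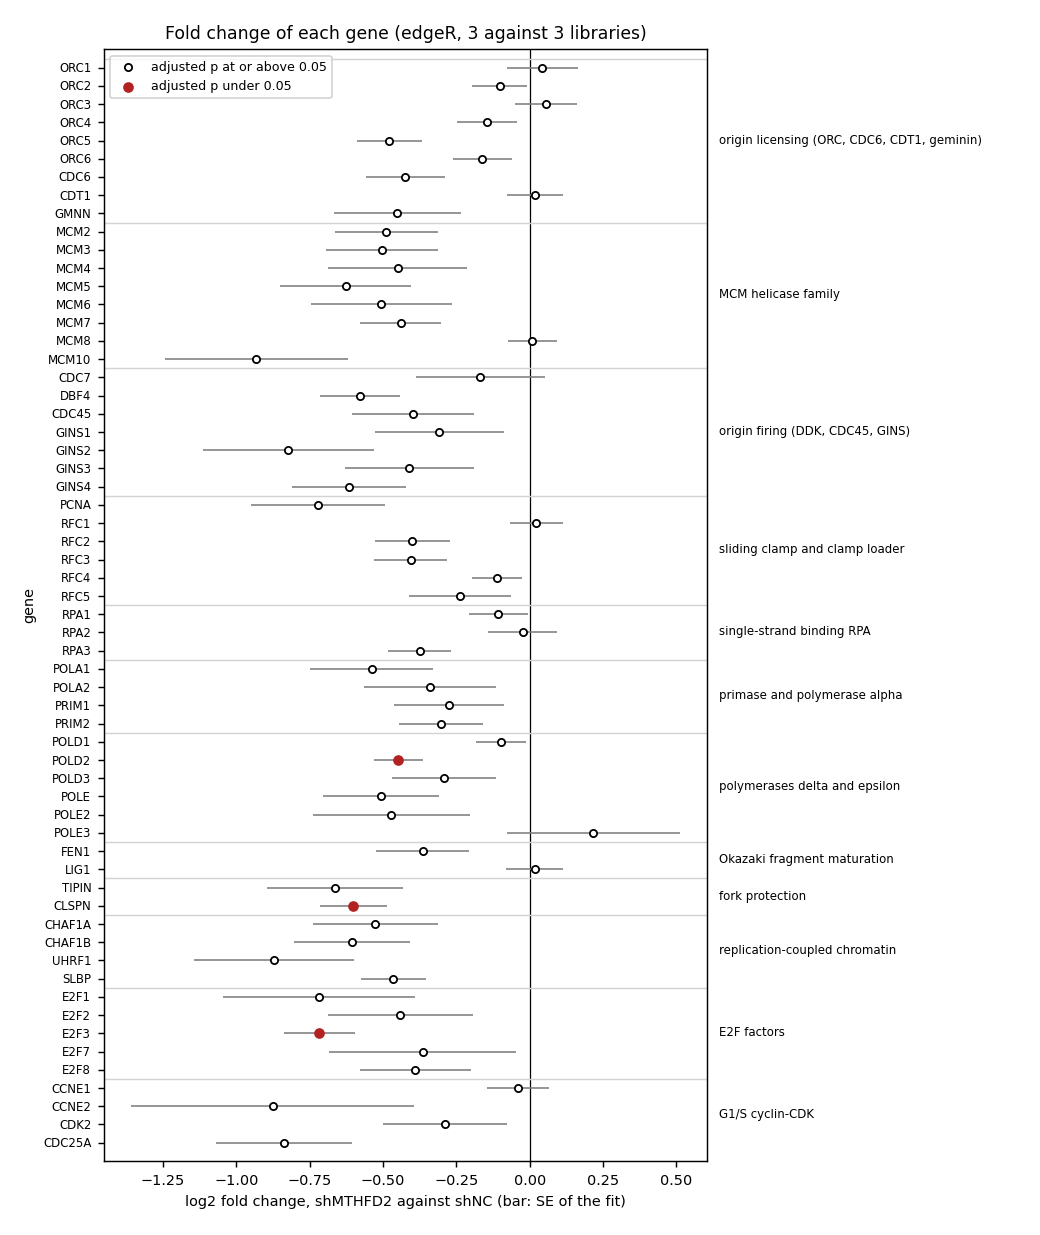
Log2 fold change of shMTHFD2 against shNC for each of the 60 genes, with a bar of 1 SE of the edgeR fit on either side, and filled points for an adjusted p under 0.05. The filled points are POLD2 at -0.45, CLSPN at -0.60 and E2F3 at -0.72, and 7 genes lie to the right of 0.

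The 3 members called as lower, of 60 tested, belong to different steps, which with so few calls is a description. Of all genes, 2.47% were called as lower, and whether the members exceed that share was not tested. For the counts by role that follow, 14.1% of all genes were lower at an unadjusted p under 0.05 and 6.69% by DESeq2. All 3 knockdown libraries were below shNC in 19.7% of all genes. Past the threshold, 7.09 and 12.6% were lower without shMTHFD2 replicates 2 and 3. The roles hold 2 to 9 genes, so that a single gene is a large part of a count. E2F3, an activating E2F factor, was at 39.3, 43.6 and 36.1 CPM in shNC and 24.6, 21.6 and 26.2 CPM in shMTHFD2. The groups did not overlap and the 3 knockdown libraries lay close together. The estimate was -0.72 ± 0.12 on the log2 scale (SE), with an adjusted p of 0.0271 (edgeR). POLD2, the accessory subunit that joins the catalytic subunit of polymerase delta to the rest of the enzyme, was at 245.6, 239 and 239.5 CPM in shNC and 186, 173 and 173 CPM in shMTHFD2. Its decrease was even over the libraries, with ratios of -0.38, -0.48 and -0.48 to the shNC mean on the log2 scale, and an overall estimate of -0.45 ± 0.08 (SE, adjusted p of 0.0327 in edgeR). CLSPN encodes claspin, which couples the fork to checkpoint signalling through CHK1. It was at 46.1, 47.2 and 41.1 CPM in shNC and 29.2, 26.8 and 32.5 CPM in shMTHFD2, without overlap, and the estimate was -0.60 ± 0.11 on the log2 scale (SE, adjusted p of 0.0341 in edgeR). The calls ended without any shNC library and without shMTHFD2 replicate 1: without an shNC library or shMTHFD2 replicate 1, the adjusted p was 0.102 to 0.174 for E2F3, 0.0987 to 0.206 for POLD2 and 0.108 to 0.205 for CLSPN. They held without shMTHFD2 replicate 2, at 0.0086, 0.0137 and 0.0125 for E2F3, POLD2 and CLSPN, and without replicate 3, at 0.0131, 0.0200 and 0.0131.

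The licensing genes gave a mixed picture. Among the 9 licensing genes 0 passed the threshold in edgeR, with a group median of -0.15. At an unadjusted p under 0.05, 2 were lower, against 14.1% of all genes, and DESeq2 called 1, ORC5, against 6.69%. The 6 ORC subunits mark origins as an ATP-dependent complex. Only ORC5 and ORC6 had all knockdown libraries below all shNC libraries, and the 6 estimates ran from -0.48 to 0.06 on the log2 scale. ORC5 was at 41.8, 45.1 and 38.0 CPM in shNC and 30.4, 27.6 and 31.6 CPM in shMTHFD2, which gave -0.48 ± 0.11 on the log2 scale (SE, adjusted p of 0.0512 in edgeR). ORC3, another ORC subunit, was at 51.4, 53.4 and 53.0 CPM in shNC and 48.6, 60.6 and 54.9 CPM in shMTHFD2, with 1 library below and 2 above the shNC range. The direction of ORC4 depends on the scale: it was -0.15 from counts and 0.12 from log2(TPM + 1).

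CDC6, the ATPase that helps ORC load the helicase, was the most abundant licensing gene at 89.99 ± 6.65 TPM in shNC (SD, n = 3). It was at 139, 142 and 125 CPM in shNC and 92.7, 89.0 and 121 CPM in shMTHFD2, which gave -0.42 ± 0.13 on the log2 scale (SE, adjusted p of 0.0987 in edgeR). All its knockdown libraries were below shNC, replicate 3 only by a few CPM. CDT1, its partner in loading, was at 72.4, 66.8 and 72.7 CPM in shNC and 66.5, 77.4 and 70.6 CPM in shMTHFD2, so that the groups overlapped. GMNN, which blocks CDT1, was at 48.2, 46.3 and 48.3 CPM in shNC and 34.4, 23.9 and 46.2 CPM in shMTHFD2. It did not overlap, yet the distance in replicate 3 was small beside that in replicate 2, and the log2 fold change was -0.45 ± 0.22 (SE, adjusted p of 0.212 in edgeR). Without shMTHFD2 replicate 3, ORC5, CDC6 and GMNN passed the threshold (adjusted p of 0.0259, 0.0133 and 0.0281 in edgeR), and without replicate 2 ORC5 did (0.0286).

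All 6 subunits of the ring, MCM2 to MCM7, lay lower in every knockdown library than in any shNC library, with log2 fold changes from -0.63 for MCM5 to -0.44 for MCM7, and adjusted p-values of 0.0979 to 0.246 in edgeR. The median ratio of these 6 genes to the shNC mean was -0.31, -1.06 and -0.26 on the log2 scale in replicates 1, 2 and 3. Among the 8 genes with an MCM name 0 passed the threshold in edgeR. At an unadjusted p under 0.05, 5 were lower, against 14.1% of all genes, and DESeq2 called 2, MCM7 and MCM10, against 6.69%. MCM7 was at 344, 359 and 332 CPM in shNC and 265, 205 and 294 CPM in shMTHFD2, and per length at 285 ± 13.3 and 218 ± 45.2 TPM (SD, n = 3). MCM5 was at 103, 98.8 and 91.2 CPM in shNC and 76.5, 40.5 and 72.7 CPM in shMTHFD2, so that replicate 2 stood far below the others. MCM4 shows how thin the margin in replicate 3 could be, with 413, 442 and 387.8 CPM in shNC and 332, 190.1 and 387.5 CPM in shMTHFD2. The subunits share 1 ring, yet their mean levels in shNC ran from 54.2 TPM for MCM6 to 285 TPM for MCM7, a ratio of 5.25.

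MCM10 and MCM8 share the MCM name with the ring subunits. MCM10, which is not part of the ring and helps to activate it, was at 39.6, 41.0 and 37.2 CPM in shNC and 24.5, 10.3 and 26.8 CPM in shMTHFD2. This was the most negative estimate of all 60 members, -0.93 ± 0.31 on the log2 scale (SE, adjusted p of 0.111 in edgeR), with replicate 2 far below the others. MCM8, which works in recombination repair with MCM9, was at 103, 106 and 98.8 CPM in shNC and 101, 102 and 108 CPM in shMTHFD2. The groups overlapped and the log2 fold change was 0.01 ± 0.08 (SE). Of the genes with an MCM name, MCM2, MCM5 and MCM10 passed the threshold as lower without shMTHFD2 replicate 2 (adjusted p of 0.0332, 0.0237 and 0.00651 in edgeR). Without replicate 3, MCM7 and MCM10 did (0.0276 and 0.0419).

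**Figure D3:**
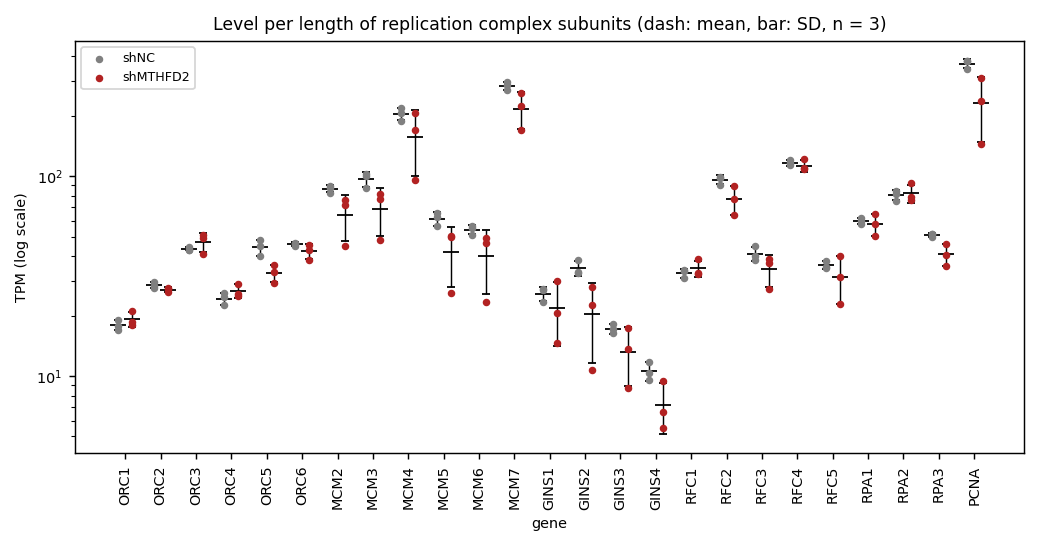
Level per length (TPM, log axis) of the ORC, MCM, GINS, RFC and RPA subunits and PCNA, with 1 point per library and the mean and SD (n = 3) of shNC and shMTHFD2 as a dash and bar. PCNA and MCM7 are highest and GINS4 lowest in both groups, and the knockdown bars are wide for MCM, GINS and PCNA and short for ORC1 to ORC6.

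Genes of origin firing were lower on balance with 0 of 7 past the threshold in edgeR. At an unadjusted p under 0.05, 3 were lower, against 14.1% of all genes, and DESeq2 called 3, DBF4, GINS2 and GINS4, against 6.69%. DBF4, the activating subunit of the CDC7 kinase, was at 63.0, 69.8 and 60.2 CPM in shNC and 42.5, 36.4 and 50.4 CPM in shMTHFD2. The groups were well apart, and the estimate was -0.58 ± 0.14 on the log2 scale (SE, adjusted p of 0.0539 in edgeR). CDC7, the kinase itself, was at 28.6, 29.6 and 27.0 CPM in shNC and 26.4, 16.9 and 32.5 CPM in shMTHFD2, with replicate 3 above every shNC library. CDC45, which binds the ring and is the most abundant gene of the group at 59.7 ± 5.87 TPM in shNC (SD, n = 3), was at 54.2, 60.02 and 49.5 CPM in shNC and 41.4, 29.3 and 53.5 CPM in shMTHFD2. Its replicate 3 lay within the shNC range, and the log2 fold change was -0.40 ± 0.21 (SE, adjusted p of 0.242 in edgeR). Of the 4 GINS subunits, 3 did not overlap, and GINS2, with the promoter word shown above, was at 42.4, 49.1 and 43.0 CPM in shNC and 28.5, 13.8 and 33.7 CPM in shMTHFD2, which gave -0.82 ± 0.29 on the log2 scale (SE, adjusted p of 0.123 in edgeR). GINS1 was above the shNC range in replicate 3. In the fit without that library DBF4, CDC45, GINS1, GINS2 and GINS4 were called as lower (adjusted p of 0.0141, 0.0414, 0.0439, 0.0366 and 0.0167 in edgeR), and without replicate 2 DBF4 and GINS2 (0.0232 and 0.0191).

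PCNA, the ring that tethers polymerases to DNA, was the most abundant of the 60 members per length, at 366 ± 17.9 TPM in shNC and 232 ± 83.2 TPM in shMTHFD2 (SD, n = 3). In counts it was at 229, 231 and 216 CPM in shNC and 143, 88.4 and 178 CPM in shMTHFD2. All 3 knockdown libraries were lower, in 3 distinct steps. The estimate of -0.72 ± 0.23 on the log2 scale (SE, adjusted p of 0.0989 in edgeR) was called without either of shMTHFD2 replicates 2 and 3 and by DESeq2 (adjusted p of 0.0271). The clamp loader that opens PCNA, RFC1 to RFC5, was less even: RFC2, RFC3 and RFC4 did not overlap, while RFC1, its large subunit, was at 79.5, 81.6 and 75.7 CPM in shNC and 75.9, 78.4 and 86.2 CPM in shMTHFD2. RFC3 was at 42.7, 47.9 and 41.9 CPM in shNC and 36.3, 28.6 and 35.1 CPM in shMTHFD2, which gave -0.40 ± 0.12 on the log2 scale (SE, adjusted p of 0.0931 in edgeR). Of these 6 genes 0 passed the threshold in edgeR, 3 had an unadjusted p under 0.05 and DESeq2 called 1, PCNA. The 3 subunits of RPA, which coats single-stranded DNA, split as well. RPA3 was at 48.2, 50.5 and 51.8 CPM in shNC and 39.0, 34.7 and 42.4 CPM in shMTHFD2, which gave -0.37 ± 0.11 on the log2 scale (SE, adjusted p of 0.0791 in edgeR). RPA2, the most abundant of them at 80.7 ± 4.72 TPM in shNC (SD, n = 3), was at 62.5, 65.1 and 59.3 CPM in shNC and 59.0, 70.4 and 54.5 CPM in shMTHFD2, with replicate 2 above and the others below the shNC range. Besides PCNA, RFC2 and RPA3 were called as lower without shMTHFD2 replicate 3 (adjusted p of 0.0297 and 0.0300 in edgeR).

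Among the polymerases the estimates varied between subunits of an enzyme. In the primase and polymerase alpha complex, which lays down primers, 0 of 4 passed the threshold in edgeR or DESeq2 and 1 had an unadjusted p under 0.05. POLA1, its catalytic polymerase subunit, was at 70.8, 75.8 and 64.6 CPM in shNC and 49.0, 33.6 and 62.8 CPM in shMTHFD2, without overlap and with an overall estimate of -0.54 ± 0.21 on the log2 scale (SE, adjusted p of 0.146 in edgeR). PRIM1, the catalytic primase subunit and the most abundant of the 4 per length at 61.6 TPM in shNC, was at 43.2, 44.2 and 39.8 CPM in shNC and 39.9, 24.8 and 40.3 CPM in shMTHFD2, so that only replicate 2 stood apart. In polymerase delta, the lagging-strand enzyme, POLD2 fell as described. POLD1, the catalytic subunit, was at 85.6, 81.4 and 81.3 CPM in shNC and 74.7, 81.5 and 76.2 CPM in shMTHFD2, so that the groups overlapped, and its estimate was -0.10 ± 0.09 on the log2 scale (SE). POLD3 overlapped as well. Their levels in shNC ran from 32.3 TPM for POLD3 to 304 TPM for POLD2, a ratio of 9.41. In polymerase epsilon, the leading-strand enzyme, POLE was at 100.1, 110.1 and 96.5 CPM in shNC and 75.6, 50.4 and 89.8 CPM in shMTHFD2, which gave -0.51 ± 0.20 on the log2 scale (SE, adjusted p of 0.146 in edgeR). The fit without shMTHFD2 replicate 3 also called POLA1, POLA2, POLD3 and POLE as lower (adjusted p of 0.0266, 0.0142, 0.0477 and 0.0357 in edgeR).

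POLE3, a histone-fold subunit of polymerase epsilon that also serves in a chromatin remodeller, went against the rest in a single library. It was at 110.2, 111 and 109.6 CPM in shNC and 92.2, 201 and 91.6 CPM in shMTHFD2. Replicates 1 and 3 lay below a very narrow shNC range and replicate 2 far above it. With all libraries the log2 fold change was 0.22 ± 0.29 (SE, adjusted p of 0.642 in edgeR), and without replicate 2 it was -0.24 with an adjusted p of 0.0489 (edgeR).

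FEN1 and LIG1 finish Okazaki fragments, FEN1 by cutting flaps and LIG1 by sealing nicks, and 0 of these 2 passed the threshold in edgeR or DESeq2 or had an unadjusted p under 0.05. FEN1 was at 99.7, 107 and 91.1 CPM in shNC and 67.5, 67.2 and 96.3 CPM in shMTHFD2, with replicates 1 and 2 nearly equal and replicate 3 inside the shNC range, and the estimate was -0.37 ± 0.16 on the log2 scale (SE, adjusted p of 0.175 in edgeR). LIG1 was at 53.9, 47.4 and 53.0 CPM in shNC and 49.5, 52.3 and 54.3 CPM in shMTHFD2, with overlap. TIPIN, which with its partner TIMELESS holds the fork together, was the more abundant fork protector per length, at 26.8 TPM against 15.4 TPM for CLSPN in shNC. In counts it was at 22.9, 24.8 and 23.6 CPM in shNC and 16.2, 9.64 and 19.2 CPM in shMTHFD2. It did not overlap, and the estimate was -0.66 ± 0.23 on the log2 scale (SE, adjusted p of 0.121 in edgeR). FEN1 and TIPIN were called as lower without shMTHFD2 replicate 3 (adjusted p of 0.0156 and 0.0323 in edgeR) and TIPIN without replicate 2 (0.0401).

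The 4 genes that rebuild chromatin behind the fork were all lower without overlap, against 19.7% of all genes, and 0 passed the threshold in edgeR. At an unadjusted p under 0.05, 4 were lower, against 14.1%, and DESeq2 called 3, against 6.69%. CHAF1A and CHAF1B, subunits of the histone chaperone CAF-1, had log2 fold changes of -0.53 ± 0.21 and -0.61 ± 0.20 (SE). UHRF1, which reads hemimethylated DNA and recruits the maintenance methyltransferase, was at 89.0, 90.3 and 81.5 CPM in shNC and 52.7, 27.1 and 62.8 CPM in shMTHFD2, which gave -0.87 ± 0.27 on the log2 scale (SE, adjusted p of 0.0965 in edgeR). SLBP, which binds the stem-loop of replication-dependent histone mRNA, was at 92.6, 97.6 and 89.6 CPM in shNC and 58.4, 70.6 and 73.9 CPM in shMTHFD2, which gave -0.46 ± 0.11 on the log2 scale (SE, adjusted p of 0.0551 in edgeR). SLBP differed from UHRF1 in its order, with replicate 1 and not replicate 2 lowest. All 4 were called without shMTHFD2 replicate 3 (adjusted p of 0.0199 for SLBP, 0.0278 for UHRF1, 0.0235 for CHAF1A and 0.0190 for CHAF1B in edgeR), and UHRF1 and SLBP without replicate 2 (0.00837 and 0.0210).

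**Figure D4:**
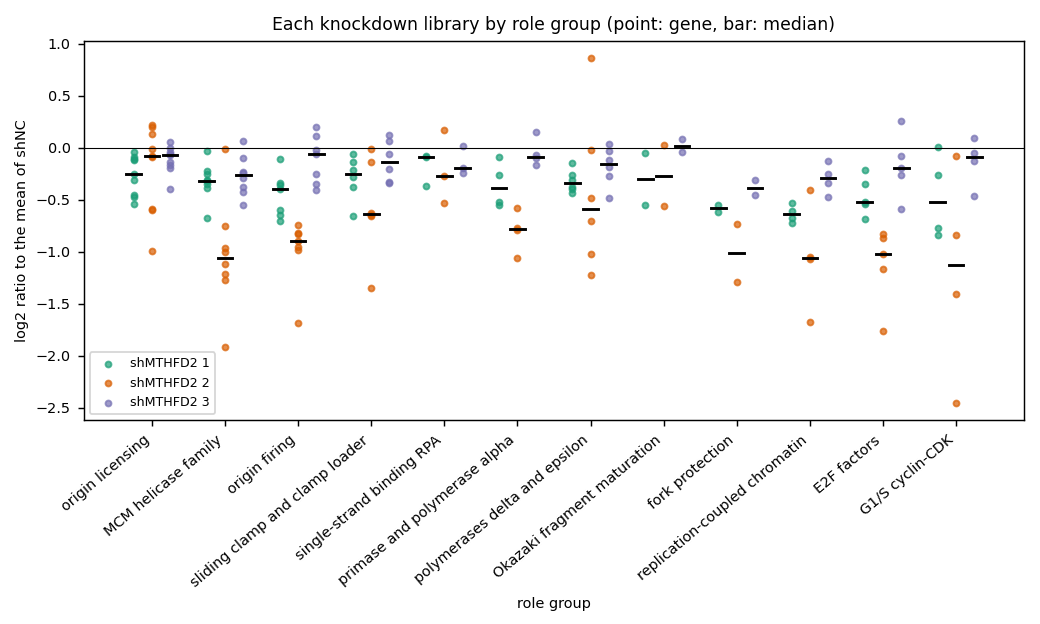
Log2 ratio of each gene to the shNC mean in the 3 shMTHFD2 libraries, by role group, with 1 point per gene and a bar at the median of the group in that library. In the licensing group the medians of replicates 1, 2 and 3 are -0.25, -0.08 and -0.06. In the group plotted as the MCM helicase family, which holds MCM10 by name, they are -0.31, -1.06 and -0.26, and in the chromatin group -0.64, -1.06 and -0.29.

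All 5 E2F factors had negative estimates, with 1, E2F3, past the threshold. E2F1, another activator and the most abundant of them per length, was at 57.6, 54.9 and 53.3 CPM in shNC and 38.5, 16.3 and 46.0 CPM in shMTHFD2. It did not overlap, but its knockdown libraries were far more scattered than those of E2F3, and the log2 fold change of -0.72 ± 0.33 (SE) had an adjusted p of 0.195 (edgeR). E2F2, a further activator at 3.54 ± 0.639 TPM in shNC (SD, n = 3), was the least abundant member. E2F7 and E2F8 are repressors that E2F activators induce. E2F7 was at 51.8, 56.6 and 47.0 CPM in shNC and 35.6, 23.0 and 62.0 CPM in shMTHFD2, with replicate 3 above shNC. E2F1 was called as lower without shMTHFD2 replicate 2 (adjusted p of 0.0343 in edgeR), and E2F7 and E2F8 without replicate 3 (0.0302 and 0.0492).

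Cyclin E, which activates CDK2 at the start of S phase, comes from a pair of genes. CCNE1 was at 22.0, 19.7 and 20.1 CPM in shNC and 20.7, 19.5 and 20.0 CPM in shMTHFD2, with overlap and a log2 fold change of -0.04 ± 0.10 (SE). CCNE2 was at 22.6, 31.5 and 23.1 CPM in shNC and 14.2, 4.55 and 23.3 CPM in shMTHFD2, which gave -0.88 ± 0.48 on the log2 scale (SE, adjusted p of 0.265 in edgeR), the widest error of the 60. Its 3 knockdown libraries span the whole distance from the shNC range to the lowest ratio of any member, -2.45 on the log2 scale in replicate 2. CDC25A, the phosphatase that activates CDK2, was at 23.3, 27.6 and 22.4 CPM in shNC and 14.2, 9.11 and 17.6 CPM in shMTHFD2, without overlap, and the estimate was -0.84 ± 0.23 on the log2 scale (SE, adjusted p of 0.0744 in edgeR). CDK2, the kinase partner and the most abundant of these 4 genes per length, was at 66.1, 61.9 and 65.9 CPM in shNC and 53.8, 36.1 and 68.8 CPM in shMTHFD2, with replicate 3 above the shNC range. Of these 4 genes 0 passed the threshold in edgeR, and CDC25A was the 1 with an unadjusted p under 0.05 and the 1 called by DESeq2. CDC25A was called without shMTHFD2 replicate 2 and without replicate 3 (adjusted p of 0.0240 and 0.0192 in edgeR), and CCNE2 without replicate 3 (0.0487).

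Set beside the promoter letters, the 27 members with an E2F word had a median log2 fold change of -0.47, with 23 negative, and the 24 with a window and no word had a median of -0.29, with 21 negative. The medians in shMTHFD2 replicates 1, 2 and 3 were -0.40, -0.98 and -0.19 with a word and -0.28, -0.52 and -0.11 without. CDT1, ORC3, MCM8 and LIG1 hold a word and had positive estimates, and POLD2, DBF4, ORC5 and SLBP hold none and were lower in every knockdown library. The split rests on exact matches to the 4 words. CDC45 and MCM10, counted without a word, hold tttggcgg, which differs from TTTGGCGC in the last letter. These figures describe the letters and were given no test.

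Of the 60 members, 18 share at least 50 exonic bases with another gene in GENCODE 29. On the opposite strand these include CLSPN, MCM2, MCM7, DBF4, FEN1 and RPA3, and CCNE2 shares 1629 with INTS8. On the same strand POLA2, POLD1 and PRIM1 share 2012, 426 and 362 with the GENCODE entries AP000944.2, AC020909.1 and AC117378.1. Strand would not separate reads of such entries. Whether they were counted for the deposited values is not given. The sources used here do not say whether the counting used strand, so reads of opposite neighbours cannot be told apart either. E2F3 and POLD2 have no such neighbour.

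Genes that work beside the members were read from further lists. Of all genes, 14.1% were lower at an unadjusted p under 0.05 in edgeR and 6.69% past the threshold in DESeq2. Without shMTHFD2 replicates 2 and 3 in turn, 7.09 and 12.6% were lower past the threshold. Of 26 other replisome and origin factors 0 passed the threshold in edgeR, with a median log2 fold change of -0.24. At an unadjusted p under 0.05, 4 were lower, and DESeq2 called 2 as lower, both near the shares over all genes. SSRP1, a subunit of the histone chaperone FACT, was at 426, 433 and 417 CPM in shNC and 359, 307 and 336 CPM in shMTHFD2 (log2 fold change -0.35 ± 0.09 SE, adjusted p of 0.0693 in edgeR). Without shMTHFD2 replicates 2 and 3 in turn, 1 and 5 of the 26 were lower past the threshold. DSCC1, of the alternative clamp loader, had an estimated log2 change of -0.53 ± 0.16 (SE, adjusted p of 0.091 in edgeR). Of 11 genes of deoxynucleotide supply 2 fell and 0 rose, against 2.47 and 2.97% of all genes, with a median of -0.43. The count was 3 without shMTHFD2 replicate 2, with a median of -0.21, and 8 without replicate 3, with a median of -0.72. DCTPP1, which removes dCTP and its modified forms, was at 55.0, 59.3 and 54.3 CPM in shNC and 36.5, 28.0 and 38.0 CPM in shMTHFD2 (log2 fold change -0.72 ± 0.13 SE, adjusted p of 0.0329 in edgeR). DTYMK, thymidylate kinase, was at 62.7, 68.6 and 58.5 CPM in shNC and 39.2, 38.3 and 47.4 CPM in shMTHFD2 (log2 fold change -0.60 ± 0.12 SE, adjusted p of 0.0361 in edgeR). Neither gene overlapped between the groups.

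Partners and brakes of the G1/S switch went in both directions. Of 14 RB and E2F partners 1 rose and 0 fell, against 2.97 and 2.47% of all genes, with a median of -0.09. An unadjusted p under 0.05 was found in 4 with negative and 3 with positive estimates, against 14.1 and 14.6% of all genes. Past the threshold, 0 were lower and 2 higher without shMTHFD2 replicate 2, and 4 lower and 3 higher without replicate 3. Of all genes, 981 of 13830 were lower and 987 higher in the first of these fits. In the second, 1756 of 13901 were lower and 1895 higher. E2F5, an E2F factor that works with the pocket proteins as a repressor, was at 5.72, 4.82 and 6.05 CPM in shNC and 11.3, 15.4 and 9.12 CPM in shMTHFD2 (log2 fold change 1.11 ± 0.22 SE, adjusted p of 0.036 in edgeR). RBL2, the pocket protein p130, was at 101.7, 99.3 and 103.6 CPM in shNC and 129.6, 120.2 and 124 CPM in shMTHFD2 (log2 fold change 0.30 ± 0.08 SE, adjusted p of 0.0746 in edgeR). Of 15 ubiquitin ligases and brakes of licensing 1 fell and 1 rose, against 2.47 and 2.97% of all genes, with a median of -0.10. At an unadjusted p under 0.05, 2 were lower and 1 higher, against 14.1 and 14.6%. Without shMTHFD2 replicate 3, 5 were lower past the threshold, against 12.6%. CDC20, an activator of the anaphase-promoting complex, fell (-0.47 ± 0.10 SE on the log2 scale, adjusted p of 0.0387 in edgeR). CDKN1B, which encodes the inhibitor p27 of cyclin E with CDK2, rose from 9.29, 8.40 and 9.57 CPM in shNC to 13.3, 19.5 and 15.0 CPM in shMTHFD2 (log2 fold change 0.81 ± 0.17 SE, adjusted p of 0.0423 in edgeR). For E2F5 and CDKN1B the highest value was that of replicate 2, the library in which most members were lowest.

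Of 10 other histone chaperones and maintenance genes 0 passed the threshold in edgeR, 2 were lower at an unadjusted p under 0.05 and DESeq2 called 1, with a median of -0.24, while 1 passed without shMTHFD2 replicate 2 and 3 without replicate 3. HIRA, the chaperone of histone H3.3, had an estimated log2 change of -0.46 ± 0.11 (SE, adjusted p of 0.0547 in edgeR) and HAT1, an acetyltransferase of new histone H4, one of -0.43 ± 0.16 (SE, adjusted p of 0.13 in edgeR). A list of 20 mitotic genes was taken for contrast, of which 1 fell and 0 rose. At an unadjusted p under 0.05, 6 were lower, DESeq2 called 3 as lower, and 3 and 9 passed without shMTHFD2 replicates 2 and 3 in turn. Its median was -0.31, and -0.30, -0.61 and -0.01 in shMTHFD2 replicates 1, 2 and 3, next to -0.41, and -0.35, -0.78 and -0.15, in the replication and G1/S genes. BIRC5, which encodes survivin of the chromosomal passenger complex, fell (-0.52 ± 0.09 SE on the log2 scale, adjusted p of 0.0275 in edgeR), and KIF23, a kinesin of cytokinesis, had an estimated log2 change of -0.84 ± 0.20 (SE, adjusted p of 0.0551 in edgeR). The estimate was negative for 18 of the 20 mitotic genes, next to 53 of the 60 members, so that mostly negative estimates were not confined to the members. Of the mitotic genes, 20, 17 and 6 lay below the shNC range in shMTHFD2 replicates 1, 2 and 3, and 0, 1 and 6 above it. In 5 of the 20 all knockdown libraries were below all shNC libraries, next to 35 of the 60 members. The difference between the mitotic and the replication genes was not tested. Without shNC replicate 1 or 2, 0 genes of all tested passed the threshold as lower and 1 as higher. The falls called in these further lists, and that of MTHFD2 itself, were therefore not called there. Of the rises of E2F5 and CDKN1B, at most 1 can have been called in each of these fits.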

How the data were processed

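Messenger RNA of 6 SCC-9 libraries was analysed from 1 deposited table, with groups taken from the sample labels. Per the file headers, the authors deposited read counts, TPM, FPKM and normalized counts per library. The deposited read counts are estimated counts, of which 53.0 to 56.0% per library are whole within 0.001, and were rounded here. The authors' normalized counts are a signal that was not used, and neither were the deposited FPKM values, while the deposited TPM values served to compare levels between genes. Per the submitters' processing notes the build was mm10, a mouse assembly, although the samples are labelled human. The human RefSeq table held 17793 of the 17862 identifiers, and 17524 had the same symbol there. The sources used here do not give the aligner, counter, annotation or strand setting.

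Genes were kept with filterByExpr, scaled by TMM and tested with edgeR 4.0.16 (R 4.3.3), quasi-likelihood with robust dispersion, no covariate, and Benjamini-Hochberg adjustment over 13710 genes with a threshold of 0.05. Each SE was taken as the size of the log2 fold change over the square root of F. The biological coefficient of variation was 16.7%. Ratios per library use log2 CPM with a prior count of 2. The test was tried on simulated counts with an equal spread in both groups. That trial does not cover the unequal spread of the shNC and shMTHFD2 libraries. Alternatives were each library left out, the replicate number as a block, other scalings and filters, DESeq2 1.42.0, and limma 3.58.1 as voom on counts or trend on log2(TPM + 1) and log2(TPM + 0.1) for genes with at least 1 TPM in 3 libraries. Python 3.11.15, pandas 2.3.3, NumPy 2.4.6 and matplotlib 3.10.9 served for tables, sequence words and figures.

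The members and lists were chosen with earlier results of these data known. All 60 members could be named. Values for every library are given for the member with the smallest p and the most abundant member of each role, for members past the threshold, and for positive members at an unadjusted p under 0.05, of which there were 0. The 2 smallest p-values were named in each other list. Further members described by library, such as CDT1, POLE3 and the CCNE genes, were chosen after their values were seen. Protein sequences were not analysed here. No libraries were duplicates, with a chi-square per degree of freedom of 3.50 to 77.4 between replicates. The labels do not say that replicate numbers pair the cultures. Deviations of same-numbered libraries from their group mean correlated at 0.00, -0.24 and -0.19, and those of differently numbered ones at -0.07 to 0.22. With 3 libraries centred in each group these values are tied to each other, so they cannot exclude paired cultures.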

Additional observations from a re-analysis of the deposited data

How the results depend on the processing

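Of 60 members, 3 fell in the comparison as reported. Leaving out each library in turn gave 0 to 30, the most without shMTHFD2 replicate 3 and 16 without replicate 2. The fit with the replicate block gave 0, where 0.0365% of all genes were called as lower, with 28 members lower at an unadjusted p under 0.05, and DESeq2 gave 15. In the block the adjusted p was 0.119 for E2F3, 0.139 for POLD2 and 0.136 for CLSPN. Other scalings, filters and limma gave 2 or 3, losing POLD2 with upper quartile scaling (0.0515) and CLSPN with limma-trend (0.0744 and 0.0746). The count of members that rose was 0 in every alternative run, and 50 to 56 members had a negative estimate, with medians from -0.55 to -0.23. Upper quartile scaling moved the median of all genes to 0.07.

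The estimates of 11 members changed sign under at least 1 alternative, POLE3, CDC7 and ORC4 among them, and the causes were not tested. Over the libraries left out, log2 fold changes ran from -0.0336 to 0.11 for ORC1, -0.00534 to 0.13 for ORC3, -0.0242 to 0.0605 for CDT1, -0.0246 to 0.0427 for MCM8, -0.37 to 0.0710 for CDC7, -0.0165 to 0.0585 for RFC1, -0.12 to 0.0693 for RPA2, -0.24 to 0.42 for POLE3, -0.0273 to 0.0605 for LIG1 and -0.0694 to 0.0188 for CCNE1. With limma-trend ORC4 was at 0.12 and 0.13 for pseudocounts of 1 and 0.1. With upper quartile scaling, total counts, a mean of at least 5 CPM and limma-trend at both pseudocounts, RPA2 was at 0.0368, 0.0208, 0.0289, 0.0223 and 0.0225, and CCNE1 at 0.0211, 0.00483, 0.0111, 0.0225 and 0.0235. The lowest count of a member in a library was 70.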
